A study of Homo sapiens with 7 samples.

Results

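The replication timing of K562, a suspension line grown from chronic myeloid leukaemia, was described as the ratio of early to late S-phase nascent DNA along the 22 autosomes. The members were the 161209 autosomal probes of the K562 array made with the new cell sorting method, which filled 22954 windows of 100 kb with at least 3 probes each. They came from 1 of the 3 K562 arrays and of the 7 arrays of the series, of which the other 4 held the osteosarcoma line U2OS. The K562 array of the old sorting method (22926 windows of 100 kb) and the K562 array labelled 44k (8435 windows of 250 kb) took no part in calling domains or choosing genes and served as checks.

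All cells had taken up bromodeoxyuridine (BrdU, a thymidine analogue) at 50 µM for 2 h, were fixed in ethanol, stained with propidium iodide for DNA content and sorted, 80000 in all, into an early fraction (S1) and a late fraction (S2). DNA made during the pulse was pulled down with an anti-BrdU antibody, put through whole genome amplification and coupled to Cy3 (early, green) or Cy5 (late, red). The 3 K562 arrays therefore differed in sorting method or array format and not in genotype or treatment, and the labels do not say how the cells of the array labelled 44k were sorted. No array had its dyes swapped, so a dye effect and timing cannot be told apart. Nothing in the labels says that the 3 arrays came from separate cultures, so p-values measure only the spread between these arrays.

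The genome of a human cell is copied in a set order. Origins in gene-rich, open chromatin tend to fire at the start of S phase, gene-poor chromatin at the nuclear edge tends to wait until its end, and neighbouring origins fire together, which gives long stretches of one timing joined by transition zones. Values are given as log2(early/late), which is log2 of green over red signal relative to the median autosomal probe of the same array, so that positive values are earlier and negative values later than that probe.

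The probes that the results rest on were oligonucleotides of 60 bases, placed on hg19. Those of DPPA2, the late control gene of the protocol, are shown. A probe each of the earliest and the latest gene by the rule used below is shown with them. They are examples of late and early readings on the new-sorting array. They are printed as the deposited tables give them, with no base marked, and the tables do not say whether a probe lies in an exon or an intron.
DPPA2, chr3:109020746-109020805: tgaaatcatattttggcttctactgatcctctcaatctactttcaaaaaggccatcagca
DPPA2, chr3:109028165-109028224: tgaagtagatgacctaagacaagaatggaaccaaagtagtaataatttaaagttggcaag
C15orf42, chr15:90166886-90166945: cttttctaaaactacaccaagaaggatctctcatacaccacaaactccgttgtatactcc
GALNT3, chr2:166626784-166626843: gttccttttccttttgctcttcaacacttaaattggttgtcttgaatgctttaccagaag

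On the new-sorting array the C15orf42 probe read 2.14, with 3110 green and 519 red units. The GALNT3 probe read -3.71, with 181 green and 1735 red units. The old-sorting array, in the same order, gave 2.33 and -3.83, so both probes kept their side of the median.

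Brightness differed between channels and arrays. On the new-sorting array 87.4% of autosomal probes were well above background in green and 60.8% in red. The old-sorting array had 45.5% and 76.7%, and the array labelled 44k had 89.2% and 9.17%, with 49.5% of its red signals replaced by the scanner software's floor value (a surrogate). A 100-kb window on the new-sorting array held a median of 7 probes, with a median SD between probes of 0.61 and a median SE of 0.24.

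The cell line labels were read against DNA amount. MTAP, a neighbour of the tumour suppressor gene CDKN2A that K562 has lost with it, had a summed signal of both channels of -3.40, -2.83 and -1.78 (log2 over the array median, means of 5, 5 and 3 probes) on the new-sorting, old-sorting and 44k arrays. On the 4 U2OS arrays it lay between -1.0 and -0.42. ABL1, whose fusion with BCR is amplified in K562, had 2.46, 2.28 and 1.94 on the K562 arrays and -0.36 to 0.55 on U2OS. The K562 arrays lay below the U2OS arrays at MTAP and above them at ABL1. Where DNA is missing, a ratio carries no timing: 49 windows (0.213%) had no probe well above background in either channel, 48 of them read below -1, and 28 were on chromosome 9.

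Of the protocol's control genes, DPPA2 was late on every K562 array. Its probes averaged -2.55 with the new sorting method, -0.89 with the old one and -1.95 on the array labelled 44k (2, 2 and 1 probes). On the old-sorting array the DPPA2 probes disagreed, at -1.92 and 0.14. BMP1, the early control gene, averaged 0.84 with the new sorting method and 1.65 with the old one (3 probes each), and its single probe on the array labelled 44k read -3.35. No BMP1 probe on the new-sorting or the 44k array, and no DPPA2 probe on the old-sorting or the 44k array, was well above background in both channels. The 250-kb window around BMP1 read 1.22, 1.22 and -0.41, so the early control was early on both arrays of the larger design and not on the third.

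K562 windows had an early and a late peak on each array. The share between -1 and 1 was 25.8% on the new-sorting array, 43.8% on the old-sorting array and 49.8% on the array labelled 44k. Of the 22954 windows of 100 kb on the new-sorting array, 7281 lay above 1, a ratio of more than 2 toward early, and 9757 lay below -1. With 1 array these are counts past a fold and not test results, and the shares were 31.7% above 1 and 42.5% below -1. On the old-sorting array 24.4% lay above 1 and 31.9% below -1, and on the array labelled 44k (250-kb windows) 17.1% and 33.1%. The split moved with the signal used: 16.9% above 1 and 39.2% below -1 after normexp correction with an offset of 50, 9.77% and 32.1% with no background correction, and 42% and 38.4% when centred on the mean.

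**Figure D1:**
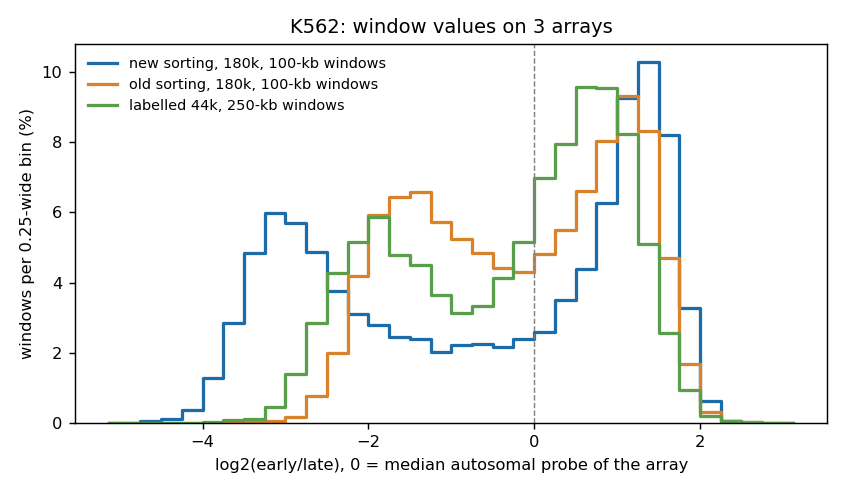
Share of autosomal windows (percent, y axis) in bins of 0.25 log2 units of early over late signal (x axis) on the 3 K562 arrays, in 100-kb windows for the new-sorting and old-sorting arrays and 250-kb windows for the array labelled 44k. Each line is 1 array, and each shows a late and an early peak, at -3.125 and 1.375 for the new-sorting array, -1.375 and 1.125 for the old-sorting array and -1.875 and 0.625 for the array labelled 44k.

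The late side of the window values was the wider. On the new-sorting array the 5th percentile was -3.48, the median -0.16 and the 95th percentile 1.71, so the late tail ran 3.32 below the median and the early tail 1.86 above it. The old-sorting array gave 2.08 and 1.61, and the array labelled 44k gave 2.53 and 1.39. The array labelled 44k was read in 250-kb windows. At that size the new-sorting array gave 2.77 and 2.24 and the old-sorting array 1.79 and 1.70. The tail below the median was the longer on each of the 3 arrays, though by little on the old-sorting array in 250-kb windows. In the earliest decile of new-sorting windows 68.8% of probes were not well above background in red. In the latest decile 46.3% were not in green, and on the array labelled 44k 49.5% of red signals were surrogates. The part of dim signals in the lengths of the tails was not tested. The emptiest bin between the peaks lay at -1.125 on the new-sorting array and at -0.125 on the old-sorting array.

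The sign of a window held better than its size. Of 22926 windows shared by both arrays of the larger design, 92.0% had the same sign. Of those above 1 on the new-sorting array, 99% were above 0 on the old-sorting array, and of those below -1, 94.7% were below 0. Only 47 windows were past 1 in opposite directions. Cut into deciles by the new-sorting array, the 4 latest deciles had means of -3.54, -3.02, -2.55 and -1.80 there and of -1.48, -1.39, -1.32 and -1.21 on the old-sorting array. The late windows that differed in depth on one array were thus nearly level on the other, whereas the early deciles kept their spacing (0.87 to 1.74 against 0.69 to 1.39 from the 7th to the 10th).

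A test over all 3 K562 arrays asked which 250-kb windows lay to one side of the array median beyond the spread between arrays. Of 8435 windows measured on each array, 3816 were above 0 on all 3 and 3524 below 0 on all 3, and 13.0% had mixed signs. By limma with Benjamini-Hochberg adjusted p under 0.05, 3266 windows (38.7%) were earlier and 3306 (39.2%) later than the median. Without the array labelled 44k no window passed in either direction (0 of 10584, with 2996 earlier and 3551 later at unadjusted p under 0.05), and with loess within arrays 1998 were earlier.

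Windows called earlier with the highest means held LRP2 and BC015798 (chr2:170000001-170250000), ENAH and SRP9 (chr1:225750001-226000000) and FRYL (chr4:48500001-48750000). The LRP2 window read 1.87, 1.86 and 2.32 on the new-sorting, old-sorting and 44k arrays, a mean of 2.02 ± 0.23 (SE, n = 3, limma adjusted p = 0.0017). The FRYL window read 2.0, 1.65 and 2.02. The called window with the lowest mean (chr4:13750001-14000000), which carries only unnamed transcripts, read -3.68, -2.03 and -3.48, a mean of -3.06 ± 0.36 (SE, n = 3, limma adjusted p = 0.0017). The window of XIRP2, a gene for an actin-binding protein of muscle, read -3.54, -2.27 and -3.29. These windows were named after their values were seen. The DPPA2 window averaged -2.03 ± 0.36 (SE, n = 3, limma adjusted p = 0.0028), and the BMP1 window averaged 0.68 ± 0.37 and did not pass (limma adjusted p = 0.129, n = 3).

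Runs of windows of one sign were joined into domains after a running median of 3 windows. The new-sorting array gave 638 early and 689 late domains of at least 300 kb, and another 50 early and 82 late runs were shorter. Early domains had a median length of 1100 kb (quartiles 600 and 2300 kb) and reached 12 Mb. Late domains had a median of 1400 kb (quartiles 700 and 2700 kb) and reached 14.5 Mb. Early domains covered 1143 Mb and late domains 1393 Mb, bridged windows without a value included. They held 48.2% and 50.8% of the windows with a value. The longest late domain (14.5 Mb) had 106 such windows and the longest early one (12 Mb) 115.

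**Figure D2:**
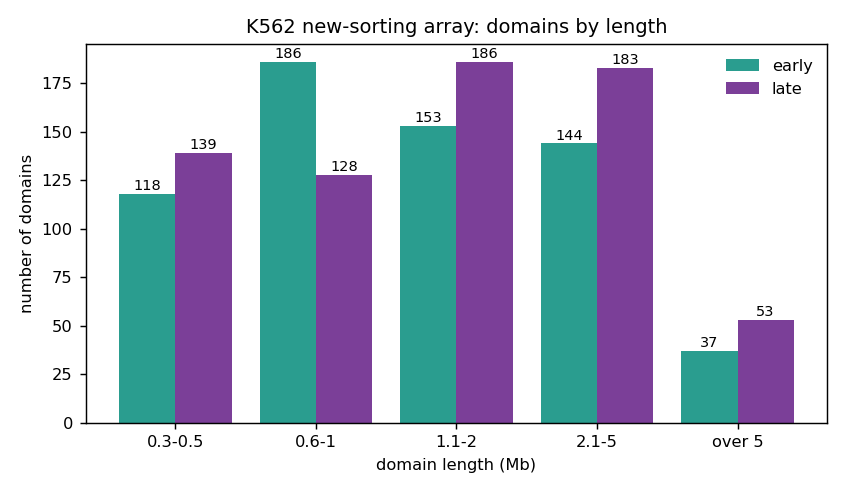
Number of early and late domains (y axis) by length in Mb (x axis) on the K562 new-sorting array, with the count above each bar. The early domains outnumber the late ones only between 0.6 and 1 Mb (186 against 128), and 37 early and 53 late domains are over 5 Mb.

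The order of the medians depended on the windows, on the sign threshold and on dim probes. With 50-kb windows the medians were 800 kb for early and 550 kb for late domains, and with at least 5 probes per window they were 1100 and 1000 kb. With the sign threshold at the emptiest bin between the peaks, added after seeing the data, they were 1400 and 1300 kb. With only probes well above background in both channels they were 1000 and 900 kb. The earliest decile of windows held 7.38 probes per window on average and the latest 5.65. The old-sorting array called on its own gave medians of 1200 and 1500 kb.

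The domains were then read on the arrays that had not called them. On the old-sorting array 590 of the 638 early domains (92.5%) and 656 of the 689 late domains (95.2%) kept their sign, and on the array labelled 44k 618 and 666 did. Above 2 Mb, 181 of 181 early and 231 of 236 late domains kept their sign on the old-sorting array. At 500 kb or less, 83 of 118 early and 114 of 139 late domains did, so short domains were the least repeatable.

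Long late domains were later than short ones. The median domain mean went from -0.77 at 300 to 500 kb to -1.48, -2.11 and -2.57 in the next 3 size classes and was -2.56 above 5 Mb. The old-sorting array gave -0.57, -1.16, -1.31, -1.33 and -1.13 for the same domains, level from 1.1 Mb on. Early domains changed less with size, from 0.61 at 300 to 500 kb to 1.06, 1.18, 1.20 and 1.24.

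The longest early domains were dense in genes, at 19.9, 24.8 and 18.2 names per Mb in the order below. The longest, on the short arm of chromosome 3 (chr3:41800001-53800000, 12 Mb), held 239 gene names on its probes, among them SETD2 (a histone H3 lysine 36 methyltransferase), SMARCC1 (a subunit of the SWI/SNF chromatin remodeller) and CACNA1D (a calcium channel subunit). It averaged 1.09, 0.85 and 0.58 on the new-sorting, old-sorting and 44k arrays. The domain at chr17:33200001-44300000 (11.1 Mb) held 275 gene names, including STAT3 and CDK12, and averaged 1.17, 0.87 and 0.60. The domain at chr1:19000001-29800000 (10.8 Mb) held 197, including EPB41, a gene of the red cell membrane skeleton, and averaged 1.26, 1.0 and 0.82. All 3 were early on every K562 array.

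The longest late domains held few genes, at 3.31, 4.93 and 4.02 names per Mb in the order below. The longest (chr5:13600001-28100000, 14.5 Mb) held 48 gene names and the cadherin genes CDH9, CDH10, CDH12 and CDH18, with DNAH5, a dynein heavy chain of cilia. It averaged -2.71, -0.91 and -1.84 on the new-sorting, old-sorting and 44k arrays. A domain on chromosome 21 (chr21:16700001-30100000, 13.4 Mb) held 66 names, with NCAM2, a neural adhesion molecule, and APP, the amyloid precursor gene, and averaged -2.69, -1.41 and -1.86. A domain on chromosome 20 (chr20:6200001-17400000, 11.2 Mb) held 45 names, with MACROD2 and SNAP25, a protein of synaptic vesicle release, and averaged -2.53, -1.03 and -1.58. All 3 were late on every K562 array.

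Neighbouring early and late domains met over short distances. Over 1090 borders the mean of the 3 windows on one side differed from that on the other by a median of 2.23 (quartiles 1.69 and 2.75). At the 876 borders with a window of 1 or more on one side and -1 or less on the other, those windows lay a median of 300 kb apart. The old-sorting array stepped in the same direction at 1079 of the 1090 borders, with a median step of 1.58.

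The steepest border lay on chromosome 14 between 54500000 and 54800001, a stretch with no window of at least 3 probes. The sides of borders were compared across such stretches. The 3 windows on the side of BMP4, a bone morphogenetic protein gene, averaged -3.21, and the 3 on the side of CDKN3, a phosphatase acting on cyclin-dependent kinases, and SAMD4A averaged 1.46. The old-sorting array read -1.91 and 1.28 and the array labelled 44k -2.36 and 0.39 over the same stretches. On chromosome 2 the windows of ACTR3, an actin-related protein gene, and SLC35F5 averaged 1.36 and those of DPP10, a potassium channel partner, -3.14. The early side ended at 114800000 and the late side began at 115000001, again with no window between. The old-sorting array read 1.09 and -1.98 there. At 96.6 Mb of chromosome 5 the side of LNPEP, LIX1 and RIOK2 averaged 1.49 and the side of 2 unnamed transcripts -2.88. The old-sorting array read 1.45 and -1.17. The 3 windows of the late side were spread over chr5:96700001-97200000, with gaps. Each of the 3 borders ran in the same direction on all 3 K562 arrays.

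**Figure D3:**
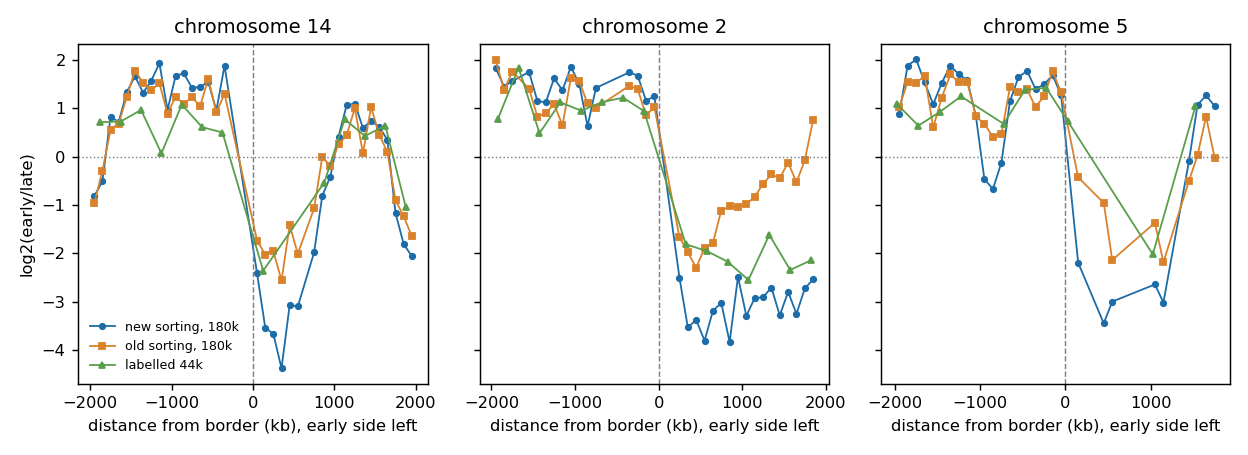
log2(early/late) (y axis) by distance in kb from the 3 steepest domain borders (x axis, early side on the left) on the 3 K562 arrays, with 100-kb windows for the new-sorting and old-sorting arrays and 250-kb windows for the array labelled 44k. At each border all 3 lines go from positive to negative values, and the new-sorting array falls the deepest.

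Single genes crossed such borders. Of 2235 genes with at least 12 probes, 157 (7.02%) had ends of opposite sign at least 2 log2 units apart, and the old-sorting array ordered the ends of all 157 the same way. PARK2 (chr6:161769668-163129723), the gene for the ubiquitin ligase parkin at a common fragile site, went from 1.56 over its 4 probes at the lower coordinate to -3.66 over its 4 probes at the upper coordinate. The old-sorting array read 0.47 and -1.90. GALNTL6 (chr4:172741297-173951583), of a family of glycosyltransferase genes, went from -3.09 to 1.88, and from -1.99 to 1.26 on the old-sorting array. No probe of its upper end was well above background in both channels on the new-sorting array. On the array labelled 44k 1 probe at each end read -0.79 and 0.23. KIAA1217 (chr10:23991675-24833504) went from -3.37 to 1.43, and from -0.76 to 0.54 on the old-sorting array. At each of its ends 1 probe was well above background in both channels on the new-sorting array. At 507 of the 2235 genes both ends were above 1 and at 731 both were below -1.

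Autosomes differed in their balance of early and late windows. Chromosome 4 was the latest of the 22, with a median 100-kb window of -1.95 and 61.3% of windows below -1, followed by chromosomes 13 (-1.67) and 18 (-1.62). Chromosomes 17 (1.04), 22 (1.01) and 19 (0.82) were the earliest, with 80.8%, 85.7% and 77.7% of windows above 0. On the old-sorting array chromosome 7 was the latest (-0.76), ahead of chromosome 4 (-0.66), and chromosomes 17 (0.81), 22 (0.79) and 19 (0.56) were again the earliest. On the array labelled 44k, in 250-kb windows, chromosome 18 was the latest (-0.98) and chromosome 1 the earliest (0.47), with chromosome 17 at 0.43, 22 at 0.36 and 19 at 0.30. The medians of the 22 autosomes correlated between the new-sorting and old-sorting arrays with Pearson r = 0.93 (Spearman rho = 0.94), a description over chromosomes that share their arrays.

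**Figure D4:**
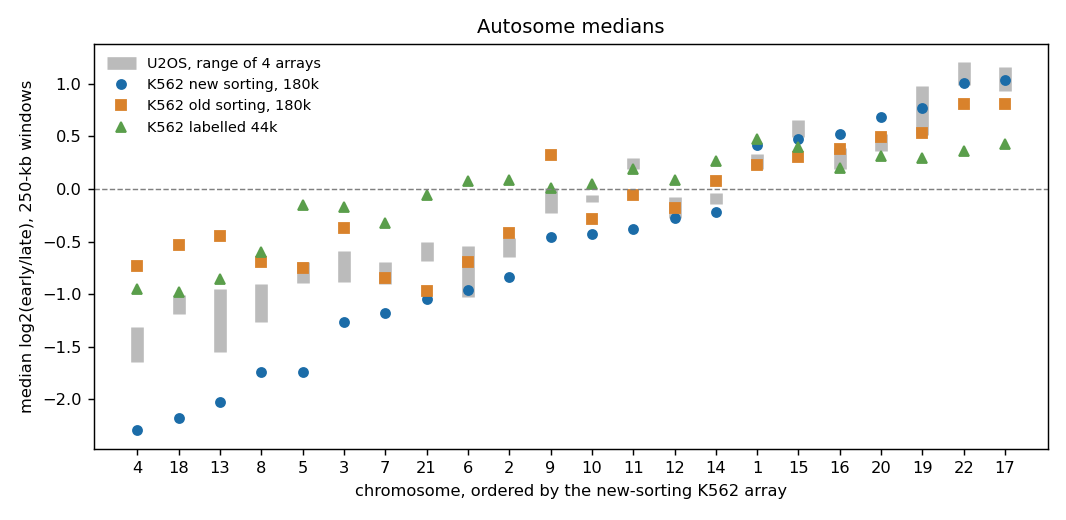
Median log2(early/late) of 250-kb windows (y axis) for each autosome, ordered by the K562 new-sorting array (x axis), with 1 symbol for each K562 array and a grey bar from the lowest to the highest of the 4 U2OS arrays. The new-sorting array spreads the chromosomes from -2.29 (chromosome 4) to 1.03 (chromosome 17), wider than either other K562 array.

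Gene content followed the chromosome order in part. Chromosome 19 carried the most gene names per 100-kb window (3.24) and was the third earliest, and chromosome 13 carried the fewest (1.05). Over the 22 autosomes the median timing and the gene names per window had Pearson r = 0.68 (Spearman rho = 0.79) on the new-sorting array and 0.64 (0.71) on the old-sorting array. The median early domain ran from 800 kb on chromosome 10 to 4900 kb on chromosome 22, and the median late domain from 550 kb on chromosome 17 to 2050 kb on chromosome 4. Chromosome 18, the third latest, had a median early domain of 1400 kb.

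No autosome median was shown to differ between K562 and U2OS. By limma on the medians of 250-kb windows, 0 of 22 autosomes passed an adjusted p of 0.05 (0% in each direction), and 1, chromosome 22, had an unadjusted p under 0.05. Chromosome 22 read 1.0, 0.81 and 0.36 on the new-sorting, old-sorting and 44k arrays and 0.99 to 1.20 on U2OS, a difference of -0.41 ± 0.17 (SE, 3 against 4 arrays, limma adjusted p = 0.671). Without the new-sorting array 8 autosomes passed, 6 of them earlier and 2 (chromosomes 17 and 22) later in K562. No slide held both lines, so line and slide cannot be told apart.

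Windows with more genes had earlier medians, up to a point. Windows whose probes carried no gene name had a median of -2.46 (3436 windows), those with 1 name -1.14, with 2 names 0.81 and with 3 or 4 names 1.1. With 5 to 7 names the median was 0.98 and with 8 or more 0.82 (64 windows). On the old-sorting array the same classes read -0.98, -0.52, 0.56, 0.85, 0.73 and 0.50. On both arrays the windows with 3 or 4 names had the highest median, and the medians of the windows richest in genes lay below it. The share of windows above 0 did not turn in this way. It was 81.2% with 3 or 4 names, 92.6% with 5 to 7 and 92.2% with 8 or more on the new-sorting array. The old-sorting array gave 79.3%, 87.9% and 92.1%.

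**Figure D5:**
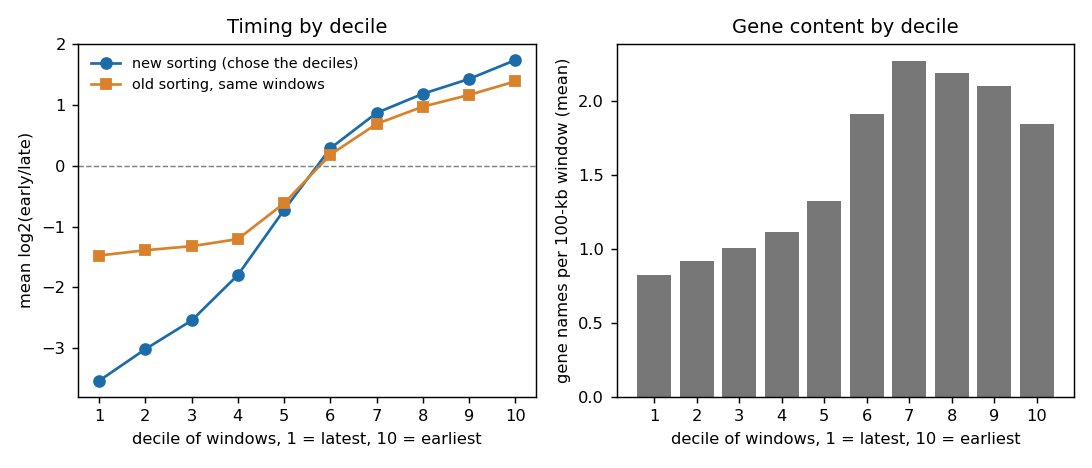
Left, mean log2(early/late) (y axis) of the new-sorting windows cut into deciles by their own value (x axis), and the mean of the same windows on the old-sorting array. Right, the mean number of gene names per 100-kb window (y axis, bars from 0) in each decile, which goes from 0.825 in the latest decile to 2.275 in the 7th and 1.844 in the earliest.

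A turn like that of the medians appeared when windows were ordered by timing. Gene names per window went from 0.825 in the latest decile to 2.275 in the 7th and 1.844 in the earliest. Windows with 5 or more names made up 9.71% of the 7th decile and 2.66% of the earliest. In the earliest decile 68.8% of probes were not well above background in red, and in the latest 46.3% were not in green, and the part of dim signals in this turn was not tested. Over all windows, timing and gene names had Pearson r = 0.40 (Spearman rho = 0.41) on the new-sorting array and 0.33 (0.35) on the old-sorting array. Probes per window, which bound how many names can be counted, had r = 0.33 with timing, and the GC content of probes r = 0.13. Early domains carried 15.2 gene names per Mb of length and late domains 4.83, bridged windows included.

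Long genes were later than short ones. Of 10938 genes with at least 3 probes, 4956 (45.3%) lay above 1 and 2712 (24.8%) below -1 on the new-sorting array, with a median of 0.87. The 4799 genes spanning under 50 kb had a median of 1.02, those of 100 to 250 kb 0.59, those of 250 to 500 kb -0.98 and the 55 genes over 1000 kb -2.87. On the old-sorting array the first and the last of these classes read 0.74 and -0.99. Of the genes over 1000 kb, 48 of 55 lay below -1 and 1 above 1.

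The earliest and latest genes were taken among the 5735 genes with at least 3 probes well above background in both channels, at least 1 Mb apart. This rule leaves out dim probes. In the earliest decile of windows 68.8% of probes were not well above background in red, and in the latest 46.3% were not in green. Genes with fewer such probes could not be ranked, so earliest and latest hold only among the 5735. The new-sorting array chose them, so its values are a description and the other arrays are the check. The earliest by this rule was C15orf42, now named TICRR, whose product helps to load CDC45 at origins. Its 3 such probes averaged 2.15 ± 0.34 (SD), its 6 probes of any brightness 1.78, and the old-sorting array read 1.94. The probe printed above read 2.50 on the array labelled 44k, which lists it as TICRR.

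In what follows the first value of a gene is over those bright probes of the new-sorting array, and the others are over all its probes on the old-sorting and 44k arrays. The order is that of the bright probes: over all probes TRPM7, for example, read 2.19 (12 probes) on the new-sorting array, above C15orf42. Next came PPP4R1, a regulatory subunit of protein phosphatase 4, at 2.09 on the new-sorting array, 1.47 on the old-sorting array and 1.06 on the array labelled 44k. E2F3, a transcription factor of the genes for S-phase entry, read 2.03, 0.98 and 1.87. FNIP2 (1.96, 1.61 and 1.56) and TRPM7, an ion channel with a kinase domain (1.94, 1.58 and 1.40), followed. PPP4R1, E2F3, FNIP2 and TRPM7 were each ranked on 3 bright probes, of 5, 7, 13 and 12 in all. The SDs of those bright probes were 0.06, 0.14, 0.16 and 0.39. NAMPT, an enzyme of NAD salvage, read 1.85, 1.72 and 1.21, and USP24, a deubiquitinase, 1.81, 1.72 and 1.45. LRP2, the endocytic receptor megalin, had the most such probes (14) and read 1.83, 1.88 and 2.12, nearly level over the 3 arrays. On U2OS its 18 probes averaged -0.46 to 0.06, below all 3 K562 arrays, and this difference was not tested. The other 4 were the unnamed transcript ENST00000419303, FAM81B, SMEK1 (now PPP4R3A, another subunit of protein phosphatase 4) and NRD1 (now NRDC, a metalloprotease). All 12 were above 0 on the old-sorting array, and so were the 10 that the array labelled 44k lists under the same name. Of all windows above 1 on the new-sorting array 99% were above 0 on the old-sorting array. The sign could therefore hardly fail for these genes, and it does not check their rank.

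The latest gene by the same rule was GALNT3, which starts mucin-type O-glycosylation. Its 4 probes averaged -3.76 ± 0.27 (SD) on the new-sorting array and -3.05 on the old-sorting array, and its single probe on the array labelled 44k read -2.48. SESTD1 read -3.63, -2.36 and -2.71 over 12 probes on the new-sorting array, all probes on the old-sorting array and 5 probes on the array labelled 44k. MIR155HG, the host gene of the microRNA miR-155, read -3.57 and -2.27 on the new-sorting and old-sorting arrays (3 probes each). The other 9 were transcripts or loci with no current gene symbol in the table used here, from -3.72 to -3.57. All 12 were below 0 on the old-sorting array, between -3.05 and -1.17, and so were the 5 that the array labelled 44k lists. Of all windows below -1 on the new-sorting array 94.7% were below 0 on the old-sorting array, so the sign does not check their rank either.

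Genes that start DNA replication were mostly early themselves. Of 21 with at least 3 probes, 14 (66.7%) lay above 1 and 3 (14.3%) below -1, against 45.3% and 24.8% of all genes, and the median was 1.35 against 0.87. Another 8 had too few probes. MCM6, a subunit of the replicative helicase, was the highest at 2.15 ± 0.53 (SD, 4 probes), with 1.86 on the old-sorting array and 1.75 on the array labelled 44k. ORC1, the largest subunit of the origin recognition complex, read 1.58, 1.71 and 1.59, and CDC45, the helicase cofactor, 1.58, 1.97 and 1.79. The 3 late members were late on all 3 arrays. MTBP, the binding partner of the TICRR product, was the lowest at -3.66, -1.71 and -2.60. ORC4, another subunit of the origin recognition complex, read -3.15, -1.52 and -2.44, and DBF4, the activator of the kinase CDC7, -2.68, -2.24 and -1.84.

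Genes for glutamate and GABA receptors, which act at synapses, were mostly late. Of 36 with at least 3 probes, 23 (63.9%) lay below -1 and 3 (8.33%) above 1, against 24.8% and 45.3% of all genes. Their median was -1.96 on the new-sorting array, -1.07 on the old-sorting array and -0.96 on the array labelled 44k. GRIK2, a kainate receptor subunit gene with 53 probes on the new-sorting array, read -3.31, -1.08 and -2.19 on these arrays and was late on all 3. GABBR2, a subunit of the GABA-B receptor, was the highest at 1.66, 1.36 and 1.24 and was early on all 3. GRIK5 (1.33, 1.17 and 1.61) was early on all 3 as well.

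Of 13 erythroid genes with at least 3 probes, 8 (61.5%) lay above 1 and 1 (7.69%) below -1, against 45.3% and 24.8% of all genes. Another 18 had too few probes. The median was 1.1 on the new-sorting array, 0.63 on the old-sorting array and 0.26 on the array labelled 44k. FECH, the last enzyme of haem synthesis, was the highest at 1.62 and 1.66 on the arrays of the larger design, and its single probe on the array labelled 44k read -0.25. BCL11A, a repressor of fetal globin, was the lowest at -1.38, -0.38 and -0.87. Ankyrin gene ANK1 read 1.39, 1.06 and 1.42. Read on the 100-kb window that holds each gene, a choice made after seeing the data, 58.1% of 31 lay above 1 and 3.23% below -1. These are new-sorting values, where 46.6% and 20.3% of all gene names did. On the old-sorting array 10 of 31 lay above 1, against 7825 of 23358 gene names, so the share was not higher there. Below -1 lay 2 of 31, against 3935 of 23358.

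Lymphoid genes had shares near those of all genes (45.3% above 1 and 24.8% below -1). Of 13 with at least 3 probes 5 (38.5%) lay above 1 and 4 (30.8%) below -1, and another 14 had too few probes. Read on the 100-kb window that holds each gene, 48.1% of 27 lay above 1 and 14.8% below -1, against 46.6% and 20.3% of all gene names read this way. The 13 ran from ZAP70, a T cell receptor kinase, at 1.71, 1.62 and 1.59 to IL7R, the interleukin 7 receptor, at -2.46, -1.75 and -1.27. Of 18 mesenchymal genes with at least 3 probes 3 (16.7%) lay above 1 and 6 (33.3%) below -1, against the same 45.3% and 24.8%, with a median of -0.13. Another 7 had too few probes. PDGFRB, a growth factor receptor, was the highest at 1.88, 1.66 and 0.84, and PRRX1, a homeobox gene of limb mesenchyme, the lowest at -3.37, -2.46 and -2.02. The extremes of both lists kept their sides of the median on all 3 arrays.

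Ribosomal protein and olfactory receptor genes are short, so nearly all had under 3 probes and were read on the 100-kb window that holds them, a choice made after seeing the data. Of all 23396 gene names read this way 46.6% were above 1 and 20.3% below -1. Of 65 ribosomal protein genes 33 were above 1 and 0 below -1, from RPL7 at 2.02 to RPS2 and RPL3L, which share a window at -0.13. The old-sorting array also put 0 of 64 below -1. Of 50 olfactory receptor genes, which lie in clusters and share 44 windows, 16 were above 1 and 12 below -1, from OR56B1 at 1.75 to OR8K5 at -3.54, both on chromosome 11. The old-sorting array read 1.66 and -1.46 for these. Olfactory receptor genes thus held both early and late clusters. Only 3 of them had at least 3 probes of their own, with a median of -2.87 on the new-sorting array, against 0.43 for the 50 read on windows.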

How the data were processed

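Nascent DNA of early (Cy3) and late (Cy5) S phase was compared on 7 two-colour Agilent arrays, 3 of K562 and 4 of U2OS. The deposited spot intensity values, processed and mean signals and local background, were written by Agilent Feature Extraction 11.5.1.1, per the file headers, and the submitters' processing notes name version 9.1. The processed signals had been background-subtracted and dye-normalized by a linear method, with a surrogate floor for dim spots, per the file headers. The deposited log10 ratio was not used for any value. Probe positions and gene names are those of the deposited tables (hg19). Current symbols came from a RefSeq table of another build, whose coordinates were not used, and 16141 of 23770 names matched.

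Control spots and non-uniform, population-outlier and manually flagged spots were left out, saturated spots kept and repeated probes averaged. log2 of green over red processed signal was centred on the median autosomal probe, with no loess or quantile step, because many probes may truly shift. Normexp correction with an offset of 50, which pulls dim ratios toward 0, was an alternative. Windows of 100 kb (250 kb where the array labelled 44k took part) needed at least 3 probes. A domain is a run of at least 3 windows of one sign after a running median of 3 windows. A gap of 5 or more windows without a value ends it, and shorter gaps are bridged. Gene content is the number of distinct gene names on a window's probes. limma 3.58.1 in R 4.3.3 (lmFit and eBayes, two-sided, Benjamini-Hochberg) tested 250-kb windows over the 3 K562 arrays against 0 and autosome medians between 3 K562 and 4 U2OS arrays. Window, domain and limma steps were tested on simulated data. Domains used Python 3 scripts, and hmmlearn gave the 2-state model.

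Named were the 12 earliest and 12 latest genes (at least 3 probes well above background in both channels, 1 Mb apart), BMP1 and DPPA2, the 3 longest early and late domains, the 3 steepest borders, the 3 genes with the widest difference between their first and last 4 probes, and the highest and lowest member of each gene list, of which 1 is not reported here. Other list members, and genes inside domains and windows, were chosen after their values were seen. The members, gene lists and rules were chosen with earlier results of these data known. The number of arrays limits the precision.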

Additional observations from a re-analysis of the deposited data

How the results depend on the processing

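Each choice was changed on its own, and for single values a change was judged against the SD between both K562 arrays of the larger design. The old-sorting values are part of that SD, so the change to the old-sorting array always exceeded it. For median domain lengths the SD was 70.7 kb, less than 1 window of 100 kb. The share of windows above 1 was 24.4% on the old-sorting array, 16.9% after normexp with an offset of 50, 9.77% with no background correction, 38.4% with only probes well above background in both channels and 42% when centred on the mean. The share below -1 was 31.9% on the old-sorting array, 32.1% with no background correction and 34.0% with probes well above background in both channels. The number of domains stayed within 1.5 times except for 1112 late domains with 50-kb windows. The median early domain was 800 kb with 50-kb windows, 1400 kb with 200-kb windows and with the sign threshold at the histogram valley (added after seeing the data), 1000 kb without smoothing, with domains of at least 1 window, with thresholds of 0.5 and -0.5 and with probes well above background in both channels, and 1200 kb on the old-sorting array, with a running median of 5 windows, in the 2-state hidden Markov model and under both other centrings. The median late domain was 550 kb with 50-kb windows, 2000 kb with 200-kb windows, 1000 kb with at least 5 probes per window, 900 kb with probes well above background in both channels, 1200 kb with domains of at least 1 window, 1500 kb on the old-sorting array and in the hidden Markov model, and 1300 kb without smoothing, with thresholds of 0.5 and -0.5, at the histogram valley and when centred on the mean. Pearson r of timing and gene names was 0.26 with 50-kb windows, 0.51 with 200-kb windows, 0.34 with at least 5 probes, 0.33 on the old-sorting array and 0.29 with probes well above background in both channels. Windows called earlier by limma numbered 1998 with loess, 1687 of 5216 with 500-kb windows and 2151 when a mean of at least 1 was also required. With only probes well above background in both channels, 216 windows remained, of which 12 were earlier and 145 later. Leaving out each K562 array gave 0 to 2910 windows earlier and 0 to 3227 later, the 0 without the array labelled 44k. Leaving out each of the 7 arrays gave 0 to 8 autosomes that differed between K562 and U2OS, the 8 without the new-sorting array. The cause of these changes was not tested. The median of the olfactory receptor list was 0.43 on windows and -2.87 over the 3 members with at least 3 probes. Each of the 24 named genes kept its sign under the settings it could be read in (all kept probes, normexp with an offset of 50, the old-sorting array and the array labelled 44k). No paired analysis was possible because the K562 arrays carry no replicate numbers in their labels.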
